A study of Sus scrofa with 24 samples.

Results

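Cholesterol synthesis, uptake and disposal were described here through a list of 32 genes, from the first condensation of acetyl units to the transporters that pass sterols into bile. The members were the gene entries of the deposited liver tables whose symbol stood on that list, and 23 of the 32 symbols were found among 13463 genes. The symbols HMGCS1, MVK, IDI1, FDFT1, LSS, LBR, SCAP, INSIG1 and INSIG2 were not matched to an entry and were not analysed here. All 23 members passed the filter on low counts, and 8279 genes were tested in all.

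The study asked whether illegal dosing of fattening pigs with androgen esters leaves a mark on liver transcription, and polyA RNA was sequenced from the livers of 24 crossbred pigs. Sustanon is a mixture of testosterone esters and was injected into muscle at 4 mg/kg of body weight, whereas Myodin is a nandrolone ester preparation and was injected at 5 mg/kg. Untreated pigs served as controls for both agents. By the study's account each group had its own pen and the controls were kept in another room. A treatment difference therefore cannot be told apart from one of pen or room. The 8 Sustanon pigs were 3 castrated boars, 3 sows and 2 uncastrated boars, the 8 Myodin pigs were 2 castrated boars, 3 sows and 3 uncastrated boars, and the 8 untreated pigs were 3 castrated boars, 3 sows and 2 uncastrated boars. The study names these classes barrows, gilts and boars, and its gilts had borne no litter. All were grower pigs of 1 hybrid stock, and the treated pigs were given repeated injections before slaughter. The uncastrated boars of every group kept their testes, a source of androgens, so an untreated uncastrated boar cannot be taken for a pig without testosterone. How much testosterone each boar had was not analysed here.

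Liver cells make cholesterol from acetyl units by a long chain of enzymes, first to mevalonate and isoprenoids, then to squalene, and then through a series of sterols. When sterols are scarce in the membrane of the endoplasmic reticulum, the transcription factor SREBF2 is cut and raises the genes of these enzymes together, whereas the oxysterol receptor NR1H3 (LXR alpha) answers a surplus and raises genes of sterol removal. Free cholesterol is moved between membranes by carrier proteins, stored as esters by the SOAT enzymes, or exported to bile.

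The libraries held 9267780 to 14017276 counts, with medians of 9807966 in untreated, 10857171 in Sustanon and 11139846.5 in Myodin pigs, and no 2 libraries of a group were as alike as repeat counts of 1 library would be (the smallest chi-square per degree of freedom was 22.8). The Y-linked gene KDM5D went against the labelled class in 3 untreated libraries. It had 0 counts in castrated boar 15, 35 counts in sow 16 and 95 counts in sow 18, while the other sows had none and the other males had 36 to 82. The labels were kept, and calls are given with and without these libraries. Whole liver was sampled, so fewer cells of a type and less RNA per cell cannot be told apart. The hepatocyte markers found in the tables, 4 of 8 listed, summed to 85600 to 221500 CPM in the 24 pigs, where CPM is a count scaled to the size of its library, here with the trimmed mean of M values (TMM).

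The members differed widely in abundance. On the scale of TPM, which scales each transcript by its length and the library's total, the sterol isomerase EBP had the highest median over the 24 pigs, 369 TPM, followed by the sterol reductase TM7SF2 at 298 TPM and the sterol methyl oxidase MSMO1 at 207 TPM. The lowest medians were those of LPIN1 at 10.3, SOAT1 at 9.79, NPC1 at 8.63 and MYLIP at 5.21 TPM. The members also differed in how steady they were from pig to pig. Between the lowest and the highest pig, SOAT2 ranged over 16.1-fold, SQLE over 15.5-fold and LPIN1 over 11.4-fold in CPM, whereas NPC1 ranged over 1.85-fold, NSDHL over 1.94-fold and NPC2 over 1.97-fold. Within the 9 groups of treatment and class, the SD of log2 CPM had a median of 0.43 over the 23 members and 0.28 over all tested genes. It was largest for SQLE, at 0.92, and smallest for NPC2, at 0.15.

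Sustanon pigs had more SOAT2, more STARD4 and less NPC2 transcript than untreated pigs, and these were the 3 members that passed the test. SOAT2, which esterifies cholesterol in liver and intestine, was 3.49-fold higher. STARD4, a soluble carrier that moves sterol between membranes, was 1.63-fold higher, and NPC2, the lysosomal protein that hands cholesterol released from lipoproteins to the membrane protein NPC1, was at 0.783 times the untreated level. The 3 members called of 23 make 13%, and 5.07% of all tested genes were called by edgeR's quasi-likelihood test at a Benjamini-Hochberg adjusted p under 0.05. Unadjusted, 8 members had a p under 0.05, or 34.8%, against 19.6% of all tested genes. The fitted change was upward in 15 members and downward in 8, with a median log2 fold change of 0.23, and the median over all tested genes was -0.01. Only SOAT2 changed by at least 1 on the log2 scale. All 3 calls were lost when the 3 libraries that go against their label were left out, as were the calls of every other gene (0 of 8434 genes tested by edgeR, 1199 at an unadjusted p under 0.05). The log2 fold changes were then 1.52 for SOAT2, 0.71 for STARD4 and -0.38 for NPC2. Their adjusted p were 0.154, 0.155 and 0.117 by edgeR's quasi-likelihood test. All 3 libraries left out were labelled castrated boars or sows, so uncastrated boars made up more of the untreated pigs that stayed.

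SOAT2 (ENSSSCG00000000260, chr5:18358941-18371262 in Sscrofa11.1) was lowest in untreated castrated boars and sows. The untreated castrated boars had 17.8, 23.6 and 16.7 CPM, the untreated sows 21.6, 12.5 and 26.1, and the untreated uncastrated boars 82.5 and 67.1. The Sustanon castrated boars had 69.4, 109 and 71.6 CPM, the Sustanon sows 107, 202 and 84.6, and the Sustanon uncastrated boars 133 and 150.5. Among castrated boars and sows every Sustanon pig thus stood above every untreated one, and 3.31% of all tested genes separated there in either direction. The only overlap between the treatments came from an untreated uncastrated boar. Means were 116 ± 45.0 CPM in Sustanon and 33.5 ± 26.2 CPM in untreated pigs (SD, n = 8 each). The log2 fold change was 1.80 (SE 0.41, 95% confidence interval 0.96 to 2.64, adjusted p = 0.0140 by edgeR's quasi-likelihood test). SOAT1 (ENSSSCG00000021464, chr9:121045211-121112393), the esterifying enzyme of most other tissues and of macrophages, had a log2 fold change of -0.16 (95% confidence interval -0.50 to 0.18). It averaged 27.3 ± 8.79 CPM with Sustanon and 30.7 ± 4.92 without treatment.

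**Figure D1:**
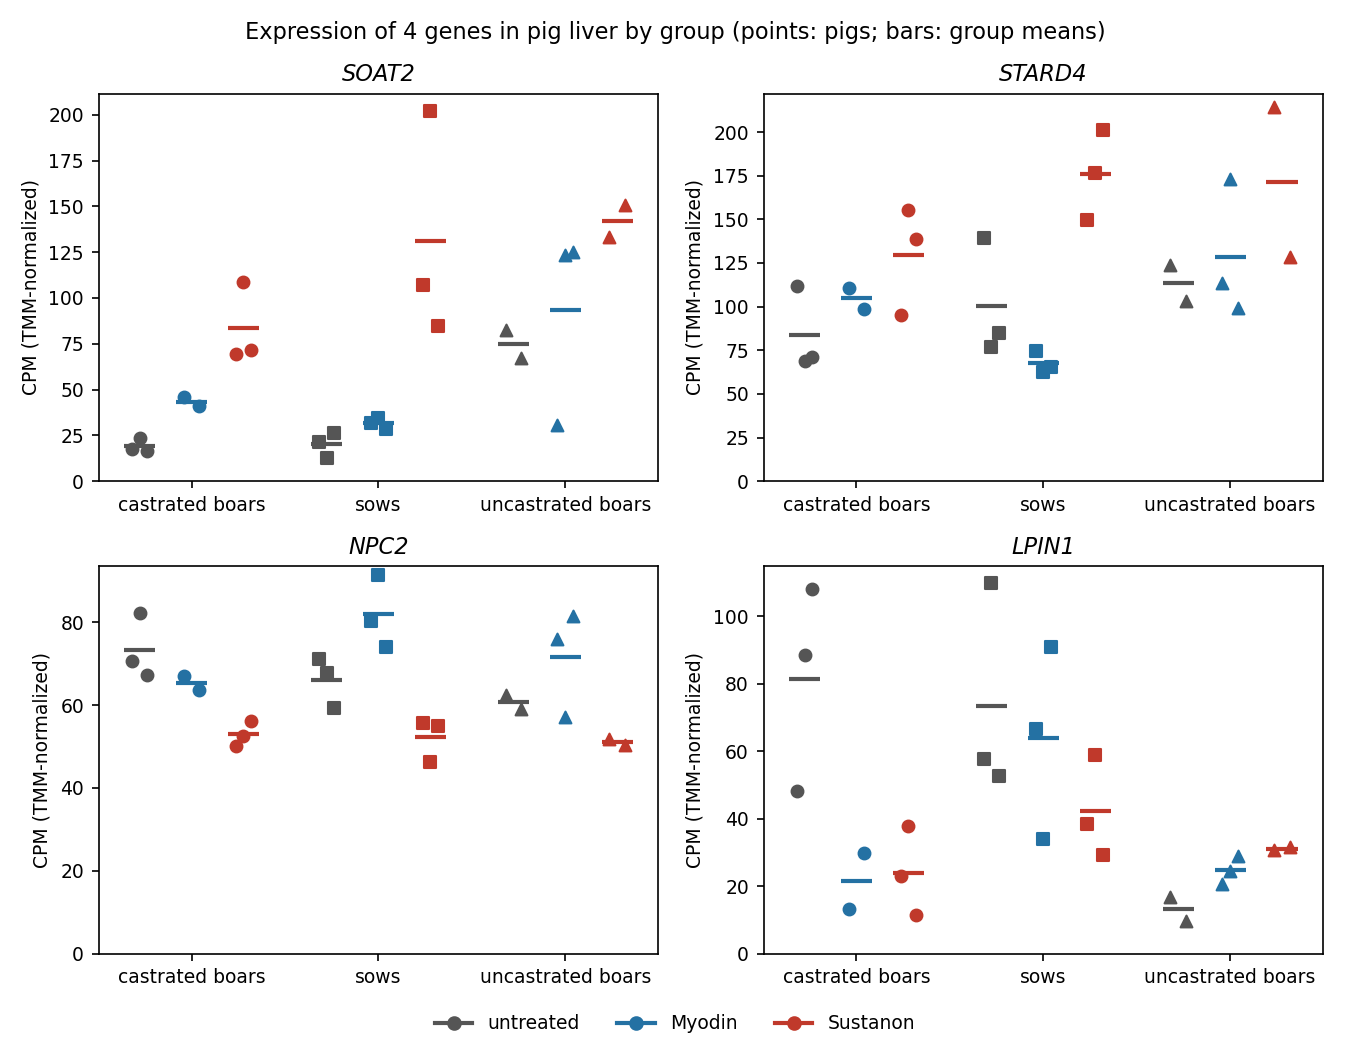
SOAT2, STARD4, NPC2 and LPIN1 in each pig, in CPM on axes that start at 0, with pigs grouped by class along the horizontal axis and coloured by treatment. Points are single pigs and bars are means of the 2 or 3 pigs of a group. SOAT2 is at 12.5 to 26.1 CPM in untreated castrated boars and sows and at 69.4 to 202 CPM in all Sustanon pigs, and NPC2 is lower in all 8 Sustanon pigs than in any other pig.

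NPC2 (ENSSSCG00000002366, chr7:97730532-97740087) separated the treatments most cleanly. The Sustanon pigs lay between 46.3 and 56.3 CPM with a median of 52.2, the untreated pigs between 59.0 and 82.2 with a median of 67.6, and the Myodin pigs between 57.1 and 91.3 with a median of 75.02. All 8 Sustanon pigs were below all 8 untreated and all 8 Myodin pigs. Such a separation from the untreated pigs, in either direction, was found in 0.435% of all tested genes, and from the Myodin pigs in 0.0846%. Against untreated pigs its log2 fold change was -0.35 (SE 0.086, adjusted p = 0.0188 by edgeR's quasi-likelihood test). NPC2 is also abundant in macrophages, and the summed CPM of the 5 Kupffer cell and leukocyte markers found, of 8 listed, was 665.4 to 881.5 in Sustanon, 645.1 to 916.4 in untreated and 712.5 to 1056 in Myodin pigs, with medians of 744.9, 807.9 and 878.8. The part of these cells in the NPC2 result was not tested. NPC1 (ENSSSCG00000003707, chr6:108403126-108450486), its partner in the lysosomal membrane, had a log2 fold change of -0.07 (95% confidence interval -0.33 to 0.18).

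STARD4 (ENSSSCG00000031518, chr2:116235821-116257143) overlapped between the treatments. Its CPM ran from 95.1 to 215 with a median of 152 in Sustanon pigs, and from 69.0 to 139.6 with a median of 94.0 in untreated pigs. The lowest Sustanon pig was castrated boar 1, and the highest untreated pig was sow 16, 1 of the libraries against its label. The log2 fold change was 0.71 (SE 0.20, adjusted p = 0.0375 by edgeR's quasi-likelihood test), and the call was lost in 10 of the 24 fits that left out a single pig. In the sows alone the groups did not overlap, at 149.7, 177 and 201 CPM against 139.6, 76.6 and 84.7, a separation that 19.4% of all tested genes showed in sows in either direction. MYLIP (ENSSSCG00000001063, chr7:12117240-12137934), the ubiquitin ligase that sends lipoprotein receptors to the lysosome, was at 10.4 ± 2.91 CPM with Sustanon and 8.79 ± 2.69 without (log2 fold change 0.26, 95% confidence interval -0.20 to 0.71).

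None of the 12 synthesis enzymes found was called in Sustanon against untreated pigs by edgeR, and DESeq2 called none of them either. At an unadjusted p under 0.05 there were 2 of the 12, FDPS and EBP, with opposite signs, a share no larger than the 19.6% of all tested genes. The fitted change was positive in 10 of the 12 and the median log2 fold change was 0.28.

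The mevalonate and isoprenoid steps were all fitted higher with Sustanon. ACAT2 (ENSSSCG00000004049, chr1:7600616-7612861), which joins the first acetyl units, had a log2 fold change of 0.37 (SE 0.24). PMVK (ENSSSCG00000006535, chr4:94861500-94913743) and MVD (ENSSSCG00000034905, chr6:1008100-1014303), which phosphorylate and decarboxylate mevalonate products, had 0.14 (SE 0.11) and 0.38 (SE 0.24). FDPS (ENSSSCG00000006512, chr4:94500140-94514820), which makes farnesyl diphosphate, ran from 95.6 to 322 CPM with a median of 137 in Sustanon pigs and from 58.1 to 145 with a median of 83.0 in untreated pigs. Its highest pig was Sustanon uncastrated boar 19, and both untreated uncastrated boars, at 145 and 117 CPM, lay inside the Sustanon range. The log2 fold change of FDPS was 0.79 (SE 0.30, 95% confidence interval 0.18 to 1.40, adjusted p = 0.124 by edgeR's quasi-likelihood test). With class as a covariate FDPS was called and the members called rose from 3 to 4, while the calls over all 8279 genes rose from 420 to 598.

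The squalene and sterol steps were more mixed. SQLE (ENSSSCG00000005970, chr4:14669789-14700152), the squalene epoxidase that commits carbon to sterols, ran from 8.25 to 128 CPM in Sustanon pigs and from 16.5 to 66.9 in untreated pigs, with medians of 40.0 and 30.9. Both the lowest and the highest of the 24 pigs were thus in the Sustanon group, castrated boar 1 and sow 6. Its log2 fold change was 0.88 with a 95% confidence interval of -0.04 to 1.80. EBP (ENSSSCG00000032768, chrX:42670592-42678571), the isomerase that shifts the double bond of the sterol ring, went the other way. It was at 187, 165 and 255 CPM in Sustanon castrated boars against 276, 262 and 296 in untreated ones, at 199.7, 227 and 210.2 in Sustanon sows against 243, 235 and 342, and at 201 and 158 in Sustanon uncastrated boars against 265 and 274. No class overlapped, although the 2 sets of 8 pigs did. In either direction 17.4% of all tested genes separated in the castrated boars, 19.4% in the sows and 50.8% in the uncastrated boars. The log2 fold change of EBP was -0.44 (SE 0.20, adjusted p = 0.230 by edgeR's quasi-likelihood test), and -0.38 (adjusted p = 0.509) without the 3 libraries against their label.

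The other 6 sterol enzymes had fitted changes near or below 0.35. CYP51A1 (ENSSSCG00000015311, chr9:72057506-72079587), the lanosterol demethylase, had a log2 fold change of 0.23, TM7SF2 (ENSSSCG00000013004, chr2:7076778-7081502) had 0.35, and MSMO1 (ENSSSCG00000008857, chr8:43726834-43745784) had -0.03. NSDHL (ENSSSCG00000012758, chrX:123906130-123921935), which acts with MSMO1 in removing the methyl groups of ring A, had 0.21. SC5D (ENSSSCG00000028517, chr9:48357115-48372391) and DHCR7 (ENSSSCG00000021181, chr2:2377352-2391846), the desaturase and the reductase of the last steps, had 0.32 and 0.22. The 95% confidence intervals of these 6 enzymes all included 0.

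Of the regulators found, SREBF2 (ENSSSCG00000026092, chr5:6719484-6784724) averaged 83.7 ± 19.3 CPM with Sustanon and 87.5 ± 13.99 CPM without treatment, a log2 fold change of -0.05 (95% confidence interval -0.42 to 0.32). Its transcript does not show how much of the protein is cut. NR1H3 (ENSSSCG00000013241, chr2:15315283-15336785) had 0.24 (adjusted p = 0.206 by edgeR's quasi-likelihood test). LPIN1 (ENSSSCG00000008624, chr3:124940557-125074137), a phosphatidate phosphatase that also acts in the nucleus on SREBF activity, had -0.89 over all pigs (SE 0.42, adjusted p = 0.238).

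The partner transporters that together pass cholesterol and plant sterols into bile lie next to each other on chromosome 3, ABCG8 (ENSSSCG00000008453) at chr3:96596975-96616224 and ABCG5 (ENSSSCG00000035912) at chr3:96616304-96656893. ABCG5 averaged 70.2 ± 10.7 CPM with Sustanon, 72.3 ± 23.6 with Myodin and 52.2 ± 13.6 without treatment. Its log2 fold change was 0.44 with Sustanon (adjusted p = 0.145) and 0.46 with Myodin (adjusted p = 0.543), both by edgeR's quasi-likelihood test against the same untreated pigs. ABCG8 averaged 109 ± 15.6 CPM with Sustanon, 132 ± 19.97 with Myodin and 114 ± 25.8 without treatment, and its log2 fold change with Sustanon was -0.05 (95% confidence interval -0.30 to 0.21).

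**Figure D2:**
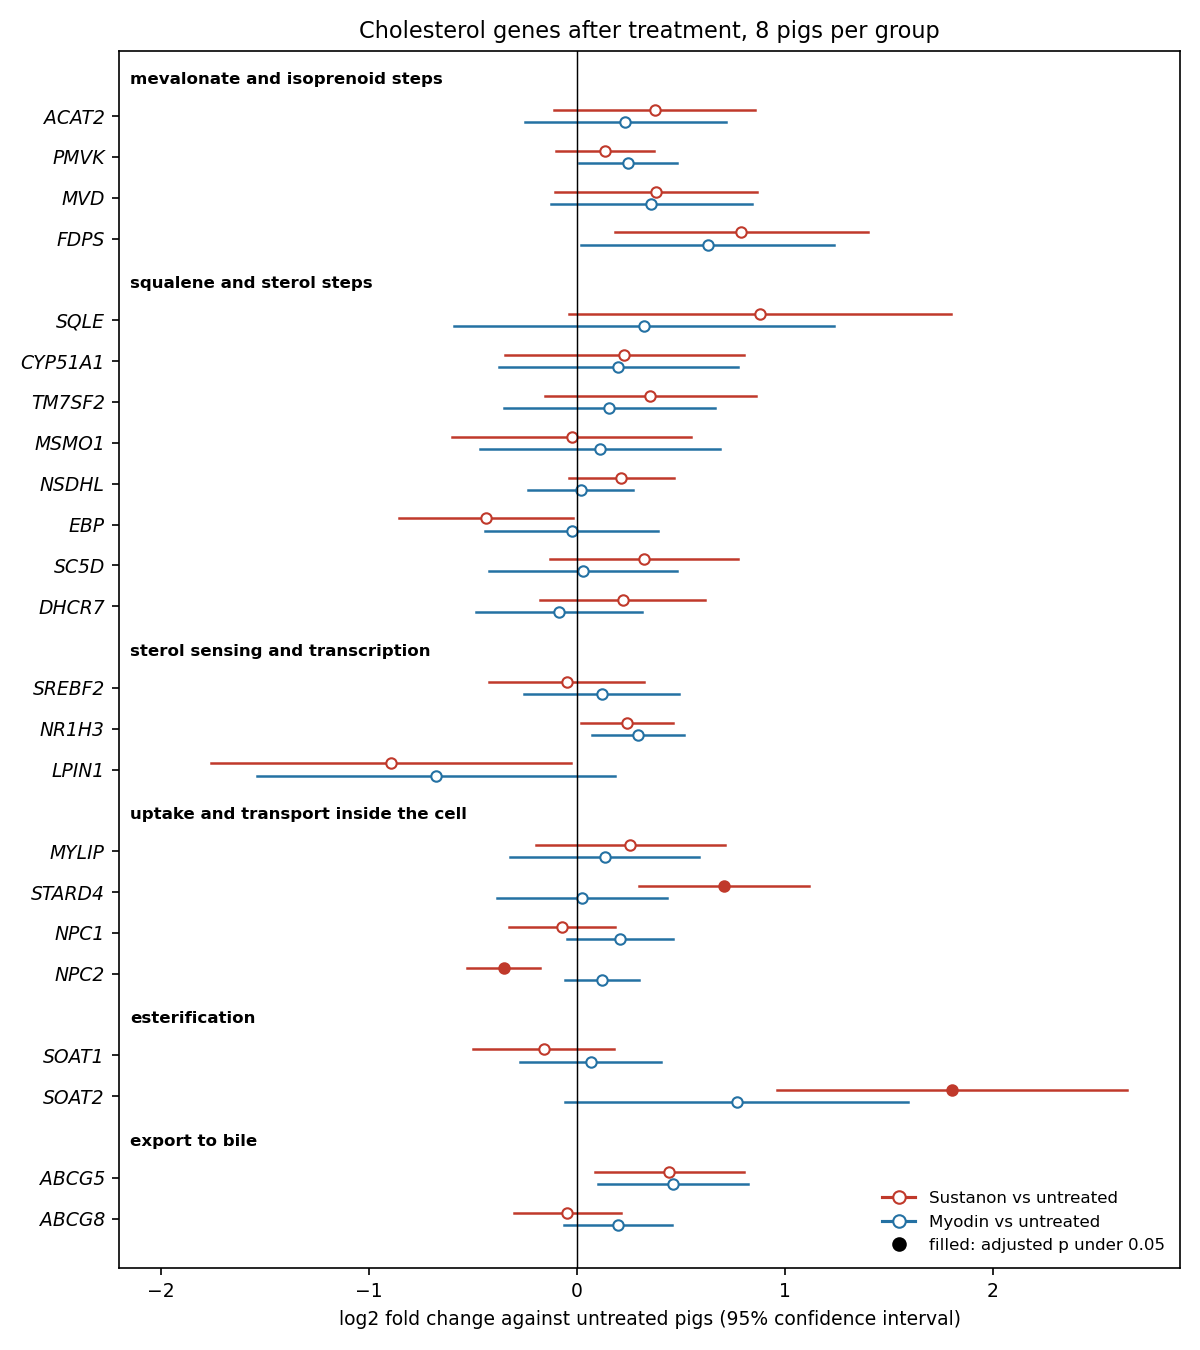
Log2 fold changes of the 23 members against untreated pigs, ordered by role, in Sustanon (red) and Myodin (blue) pigs, 8 per group. Points are fitted values, lines are 95% confidence intervals, and filled points passed edgeR's quasi-likelihood test at an adjusted p under 0.05: STARD4, NPC2 and SOAT2 with Sustanon, and no member with Myodin.

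The Sustanon effect was also read in the pigs labelled castrated boars and sows, called pigs without testes here after their labels, although KDM5D goes against the label in 3 of the untreated ones. There 4 of 23 members were called by edgeR, and 5.6% of all tested genes were. SOAT2 and STARD4 rose, and NPC2 and LPIN1 fell. At an unadjusted p under 0.05 there were 8 members, and 20.1% of all tested genes. SOAT2 was 5.39-fold higher, a log2 fold change of 2.43 (SE 0.29, 95% confidence interval 1.82 to 3.04, adjusted p = 0.000140 by edgeR's quasi-likelihood test). It was called in each of the 24 fits that left out a single pig. Without the 3 libraries against their label it had a log2 fold change of 2.72. Sow 17 was then the only untreated sow left, and its 12.5 CPM of SOAT2 was the lowest of all 24 pigs.

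LPIN1 showed the largest fall. The untreated castrated boars had 48.3, 88.5 and 108 CPM and the untreated sows 57.8, 109.9 and 52.5, whereas the Sustanon castrated boars had 23.01, 37.7 and 11.4 and the Sustanon sows 38.5, 59.0 and 29.3. In castrated boars the groups did not overlap, as in 17.4% of all tested genes in either direction, and in sows only Sustanon sow 5 reached the untreated range. The log2 fold change of LPIN1 was -1.26 (SE 0.31, adjusted p = 0.0212 by edgeR's quasi-likelihood test). Without the 3 libraries against their label it was -1.43 and the call was lost. Sow 17, the only untreated sow left there, had the highest LPIN1 of all 24 pigs. The call was also lost without untreated castrated boar 15, untreated sow 17 or Sustanon sow 6 alone. NPC2 had a log2 fold change of -0.38 (adjusted p = 0.0189) and STARD4 0.74 (adjusted p = 0.0257) in pigs without testes, and without the 3 libraries these were -0.44 (adjusted p = 0.0885) and 0.88 (adjusted p = 0.0859). Leaving out single pigs, the NPC2 call was lost without Sustanon sow 5 or untreated castrated boar 14. The STARD4 call was kept in 17 of 24 such fits, with an adjusted p of up to 0.0717 by edgeR, and was lost without Sustanon castrated boar 2, Sustanon sow 5 or 6, untreated castrated boar 14 or 15, or untreated sow 17 or 18. NSDHL had 0.39 (SE 0.12, adjusted p = 0.0589), just short of the threshold. It was called by DESeq2, which called 701 of 9032 genes against 464 of 8279 by edgeR, and by edgeR in the fits without Sustanon sow 4, Myodin uncastrated boar 22 or Myodin uncastrated boar 24, and had 0.44 (adjusted p = 0.232) without the 3 libraries.

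Myodin changed no member by the same test. In Myodin against untreated pigs 0 of 23 members and 0% of all tested genes were called by edgeR, and DESeq2 called 0 members, as did edgeR without the 3 libraries against their label. At an unadjusted p under 0.05 there were 4 members, NR1H3, ABCG5, PMVK and FDPS, all higher with Myodin, and 7.21% of all tested genes. The fitted change was positive in 20 of the 23 members with a median of 0.16, and the median over all tested genes was 0.00. In pigs without testes it was positive in 13 members and negative in 10, with a median of 0.09. Of the 12 synthesis enzymes 10 were fitted higher and 2 lower in all pigs (median 0.18). In pigs without testes 4 were fitted higher and 8 lower (median -0.15). The fit of all pigs did not adjust for class. Myodin pigs included 3 uncastrated and 2 castrated boars, and untreated pigs 2 uncastrated and 3 castrated. The part of this imbalance in the directions was not tested. These fits use the same untreated pigs as the Sustanon comparison, so the directions of the 2 comparisons are not independent.

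NR1H3 had the smallest p with Myodin. It ran from 181 to 310 CPM with a median of 209.9 in Myodin pigs and from 138 to 223 with a median of 177 in untreated pigs, and the log2 fold change was 0.29 (SE 0.11, adjusted p = 0.519 by edgeR's quasi-likelihood test). ABCG5 ran from 44.6 to 117 CPM with Myodin and from 33.8 to 71.5 CPM without. PMVK ran from 85.9 to 152 CPM with Myodin and from 73.7 to 112 without, with a log2 fold change of 0.25 (adjusted p = 0.667 by edgeR's quasi-likelihood test). The ranges overlapped in all 3 genes.

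SOAT2 with Myodin was read class by class. The Myodin castrated boars had 45.7 and 41.1 CPM and the Myodin sows 31.7, 34.6 and 28.5, all above the 6 untreated castrated boars and sows. A separation of Myodin from untreated pigs in these classes, in either direction, was found in 1.78% of all tested genes, and of Sustanon from untreated pigs in 3.31%. The Myodin uncastrated boars were split, with 124 and 125 CPM in boars 23 and 24 and 30.9 in boar 22. The log2 fold change of SOAT2 with Myodin was 0.77 over all classes (SE 0.40, adjusted p = 0.710) and 0.91 in pigs without testes (SE 0.30, 95% confidence interval 0.28 to 1.53, adjusted p = 0.247), both by edgeR's quasi-likelihood test. In pigs without testes 0 of 23 members were called with Myodin by edgeR or by DESeq2, and 0.0604% of all tested genes were called by edgeR (5 of 8279) and 80 of 8806 by DESeq2. At an unadjusted p under 0.05 there were 4 members, LPIN1, SOAT2, NR1H3 and ABCG5, and 10.9% of all tested genes. LPIN1 had a log2 fold change of -1.06 there (SE 0.33, adjusted p = 0.237), with 13.3 and 29.8 CPM in Myodin castrated boars and 66.6, 33.99 and 91.0 in Myodin sows. Without the 3 libraries against their label sow 17 was the only untreated sow left. In that fit the log2 fold changes in pigs without testes were 1.198 for SOAT2 and -1.23 for LPIN1 by edgeR.

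The agents were also compared with each other, although their doses differed. In Sustanon against Myodin pigs 1 of 23 members was called by edgeR, NPC2, and 0.664% of all tested genes were. NPC2 had a log2 fold change of -0.47 (SE 0.086, adjusted p = 0.0315 by edgeR's quasi-likelihood test), and -0.48 (adjusted p = 0.0443) without the 3 libraries against their label. This call was lost in the fits without Sustanon castrated boar 2, Sustanon sow 5 or 6, Sustanon uncastrated boar 20, or Myodin sow 10 or 11, with adjusted p from 0.0535 to 0.0751. At an unadjusted p under 0.05 there were 4 members, NPC2, STARD4, SOAT2 and NPC1, and 18.1% of all tested genes. STARD4 had 0.68 (95% confidence interval 0.27 to 1.09, adjusted p = 0.0833) and SOAT2 1.03 (95% confidence interval 0.21 to 1.85, adjusted p = 0.179). With class as a covariate both were called as well as NPC2, while the calls over all 8279 genes rose from 55 to 390. STARD4 ran from 62.8 to 173 CPM with Myodin, and only uncastrated boar 23 exceeded the Sustanon median.

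Uncastrated boars were set against castrated boars without Sustanon, averaging the untreated and the Myodin pigs, to compare pigs with and without testes. SOAT2 was called, 1 of 23 members, and 0.676% of all tested genes were called by edgeR. It was 2.897-fold higher in uncastrated boars, a log2 fold change of 1.53 (SE 0.32, adjusted p = 0.0291 by edgeR's quasi-likelihood test). Both untreated uncastrated boars stood above the 3 untreated castrated ones, where 39.2% of all tested genes separated in either direction, whereas with Myodin boars 23 and 24 stood above the 2 castrated boars and boar 22 below them. The call was lost without the 3 libraries against their label (log2 fold change 1.49, adjusted p = 0.0678) and in 9 of the 24 fits without a single pig. An unadjusted p under 0.05 was found for 7 members and for 15.8% of all tested genes. These were SOAT2, MVD, ACAT2, FDPS and NSDHL, higher in uncastrated boars, and LPIN1 and ABCG8, lower.

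All 12 synthesis enzymes were fitted higher in uncastrated than in castrated boars, with a median log2 fold change of 0.29, but none was called by edgeR, and 4 had an unadjusted p under 0.05. PMVK and TM7SF2 each turned lower in 1 of the 29 other fits. DESeq2 called MVD among the 12 enzymes. The fit averages untreated and Myodin boars. In untreated boars PMVK, TM7SF2, MSMO1 and SC5D were lower in uncastrated boars without overlap, and MVD, FDPS, SQLE and NSDHL were higher. With Myodin TM7SF2, MSMO1 and SC5D were higher without overlap, as were ACAT2, MVD, FDPS, SQLE and CYP51A1, and no enzyme was lower without overlap. MVD had a log2 fold change of 0.81 (SE 0.23, adjusted p = 0.102 by edgeR's quasi-likelihood test), with 39.8 and 47.2 CPM in untreated uncastrated boars against 28.3, 26.1 and 28.8 in untreated castrated boars. In the Myodin pigs it had 69.0, 34.2 and 57.4 CPM against 23.9 and 31.6, so MVD was higher in uncastrated boars without overlap under both conditions. Such a separation, in either direction, was found in 39.2% of all tested genes in the untreated boars and in 23.9% in the Myodin boars. LPIN1 had -1.20 (SE 0.36, adjusted p = 0.106), with 16.9 and 9.63 CPM in untreated uncastrated boars, the latter the lowest of all 24 pigs, against 48.3, 88.5 and 108 in untreated castrated boars. With Myodin the classes overlapped, at 20.7, 24.5 and 28.99 CPM in uncastrated against 13.3 and 29.8 in castrated boars, with means of 24.8 and 21.6 CPM. Whether the difference between the classes itself differed between untreated and Myodin boars was not tested. ABCG8 had -0.50 (SE 0.13, adjusted p = 0.0744), with 96.6 and 75.5 CPM in untreated uncastrated boars against 119, 152 and 132 in untreated castrated boars, and with Myodin 116, 107.6 and 123 against 132 and 168. DESeq2 called 4 members in this comparison, MVD, LPIN1, SOAT2 and ABCG8, and 253 of 8806 genes in all, against 56 of 8279 by edgeR. Without the 3 libraries edgeR gave 0.83 for MVD (adjusted p = 0.128), -1.07 for LPIN1 (adjusted p = 0.160) and -0.50 for ABCG8 (adjusted p = 0.0948).

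Whether the Sustanon effect itself differed between uncastrated boars and pigs without testes was tested by the difference of the effects. No member passed (0 of 23 by edgeR, 1 by DESeq2, which called 45 of 9710 genes), and 0.0604% of all tested genes were called by edgeR. An unadjusted p under 0.05 was found for 3 members, LPIN1, SOAT2 and NSDHL, and 7.43% of all tested genes. LPIN1 had 30.7 and 31.6 CPM in Sustanon uncastrated boars, above both untreated ones, a separation that 50.8% of all tested genes showed in either direction in these 4 boars, while it was lower with Sustanon in pigs without testes. The difference of the LPIN1 effects was 2.496 on the log2 scale (SE 0.64, 95% confidence interval 1.15 to 3.84, adjusted p = 0.224 by edgeR's quasi-likelihood test), and this was the call of DESeq2 (adjusted p = 0.0178). For SOAT2 the difference was -1.499 (95% confidence interval -2.66 to -0.34, adjusted p = 0.507), and for NSDHL -0.63 (95% confidence interval -1.12 to -0.14, adjusted p = 0.512). Without the 3 libraries, with 1 untreated sow left, these differences were 2.66 for LPIN1, -1.79 for SOAT2 and -0.68 for NSDHL by edgeR. Each side of this comparison among uncastrated boars held 2 pigs.

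The synthesis enzymes varied widely from pig to pig, and largely together. Log2 CPM of each enzyme was centred and divided by its SD across pigs (a z-score), and the 12 enzymes were averaged in each pig. The mean was -0.21 ± 0.36 in untreated, 0.20 ± 0.68 in Sustanon and 0.00 ± 0.99 in Myodin pigs (SD, n = 8 each), and the ranges of the 3 groups overlapped. The medians stood in another order, at -0.20, -0.08 and 0.31, so the order of the treatments depends on the measure. By class it was -0.42 ± 0.26 in castrated boars (n = 8), 0.09 ± 0.87 in sows (n = 9) and 0.36 ± 0.67 in uncastrated boars (n = 7). Myodin sow 10 stood lowest at -1.84, with 10 of the 12 enzymes among the lowest 4 pigs. Myodin uncastrated boar 22 stood highest at 1.29, and Sustanon uncastrated boar 19 followed at 1.16. MSMO1, for example, had 116 CPM in Myodin sow 10 and 833 CPM in Myodin uncastrated boar 22, and 254 to 503 CPM in the untreated pigs. After the means of the 9 groups were removed, the correlation of log2 CPM between enzymes had a median of 0.53 over 66 pairs, of which 63 were positive, and that between enzymes and the other members had a median of -0.07 over 132 pairs. The other members were not alike, with a median r with the enzymes of 0.72 for SREBF2, 0.34 for NPC1 and -0.37 for NR1H3. Among the enzymes this median went from 0.12 for PMVK and 0.22 for TM7SF2 to 0.76 for MSMO1. All these correlations share the same 24 libraries and are given as a description.

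**Figure D3:**
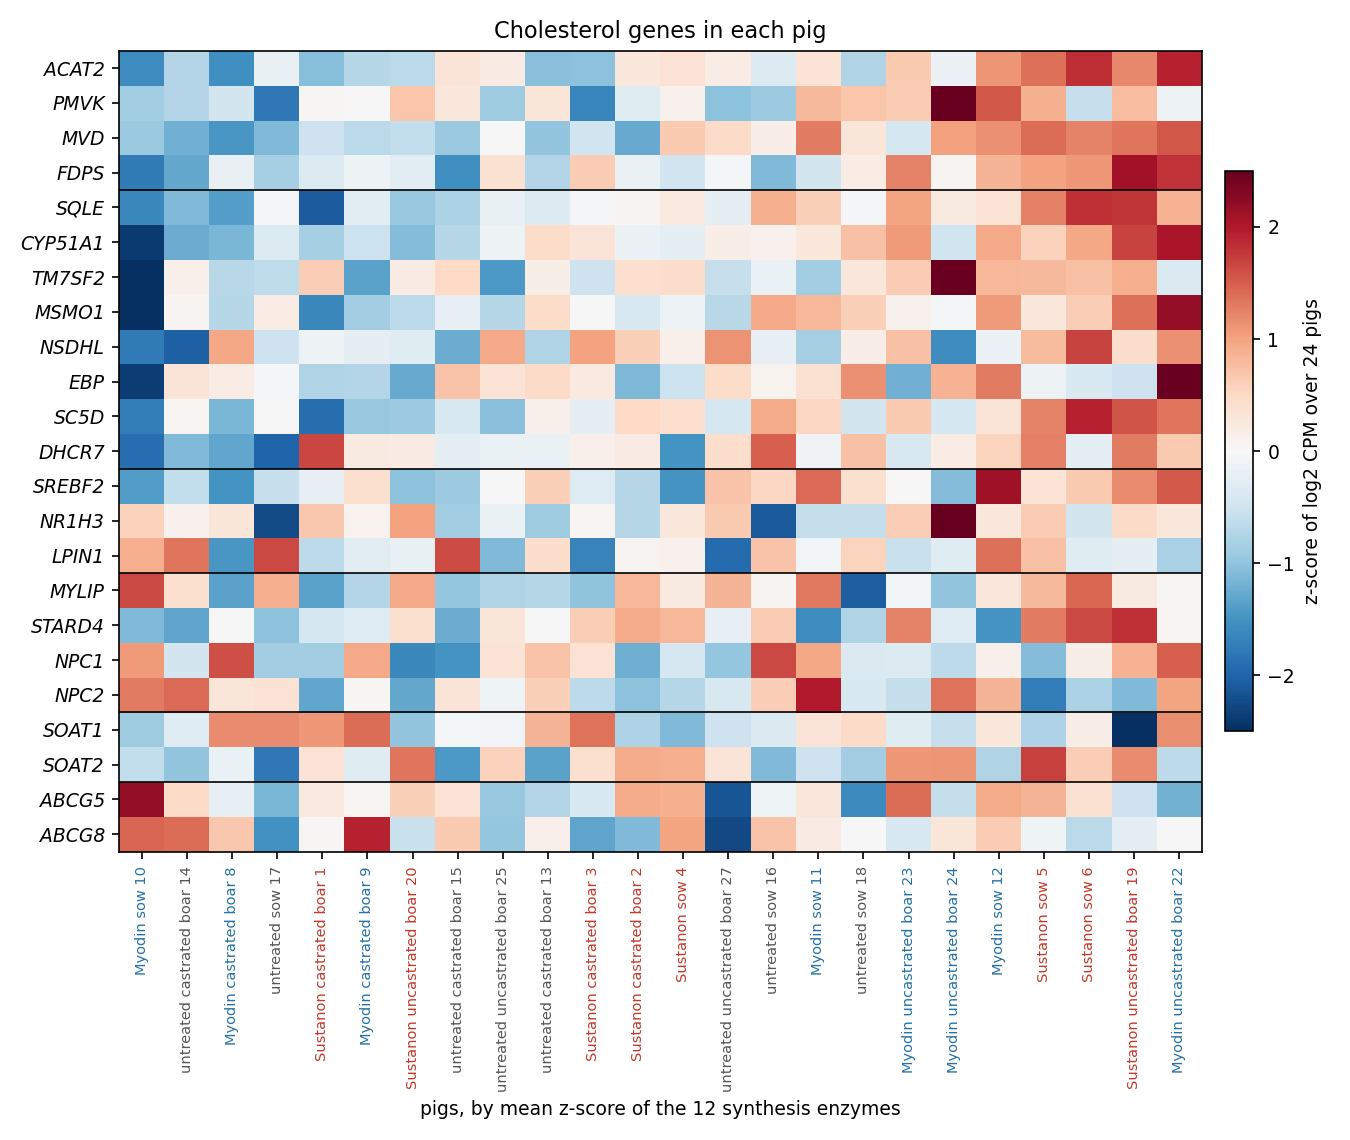
Scaled log2 CPM (z-scores across pigs) of the 23 members (lines, by role) in each pig (columns, with labels coloured by treatment), ordered by the mean z-score of the 12 synthesis enzymes. Myodin sow 10 at the left has a mean of -1.84 and Myodin uncastrated boar 22 at the right 1.29, and most of the 12 enzymes at the top are blue at the left and red at the right.

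Pairs of members were then correlated over the 24 pigs in log2 CPM, 9 pairs in all. Each had 100000 permutations, with Benjamini-Hochberg adjustment over the 9. Values were permuted over all pigs without regard to treatment or class. The p-values therefore do not part shifts between groups from a relation among pigs of 1 group. SQLE stood in as the marker of synthesis, and these pairs were chosen after the values were seen. SQLE and CYP51A1 rose and fell together, with r = 0.82 (permutation p = 1e-05, the smallest these permutations can give, adjusted p = 9e-05) and rho = 0.81 (permutation p = 1e-05). Without the 2 pigs farthest from the SQLE median r was 0.84, and within untreated, Sustanon and Myodin pigs it was 0.62, 0.90 and 0.90. SQLE and FDPS had r = 0.68 (adjusted permutation p = 0.00144) and rho = 0.63 (adjusted permutation p = 0.00657), with 0.71 without the 2 farthest pigs, and 0.25, 0.79 and 0.78 within the treatments in the same order.

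SREBF2 and STARD4 also followed SQLE. SQLE and SREBF2 had r = 0.57 (adjusted permutation p = 0.00855) and rho = 0.54 (adjusted permutation p = 0.0158), with 0.62 without the 2 farthest pigs, and 0.59, 0.61 and 0.70 within untreated, Sustanon and Myodin pigs. SQLE and STARD4 had r = 0.58 (adjusted permutation p = 0.00855) and rho = 0.54 (adjusted permutation p = 0.0158), with 0.54 without the 2 farthest pigs, and 0.74, 0.99 and 0.24 within untreated, Sustanon and Myodin pigs. SOAT2 did not pass with SQLE (r = 0.29, adjusted permutation p = 0.186, rho = 0.32, adjusted permutation p = 0.163), nor did MYLIP (r = 0.29, adjusted permutation p = 0.186, rho = 0.23, adjusted permutation p = 0.305) or LPIN1 (r = -0.02, adjusted permutation p = 0.939, rho = 0.01, adjusted permutation p = 0.963).

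The esterifying enzymes ran against each other. SOAT1 and SOAT2 had r = -0.51 (adjusted permutation p = 0.0165) and rho = -0.52 (adjusted permutation p = 0.0179), with -0.48 without the 2 farthest pigs, and -0.58, -0.71 and -0.41 within untreated, Sustanon and Myodin pigs. On the deposited log2 values r was -0.37 and no longer passed. Sustanon uncastrated boar 19 had the lowest SOAT1 of all pigs, 14.8 CPM, beside 133 CPM of SOAT2. The neighbours ABCG5 and ABCG8 had r = 0.48 (adjusted permutation p = 0.0284) but rho = 0.33 (adjusted permutation p = 0.163), and r was 0.21 without untreated uncastrated boar 27 and Myodin sow 10, so the relation rests on those pigs. Within untreated, Sustanon and Myodin pigs it was 0.85, 0.33 and 0.22.

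**Figure D4:**
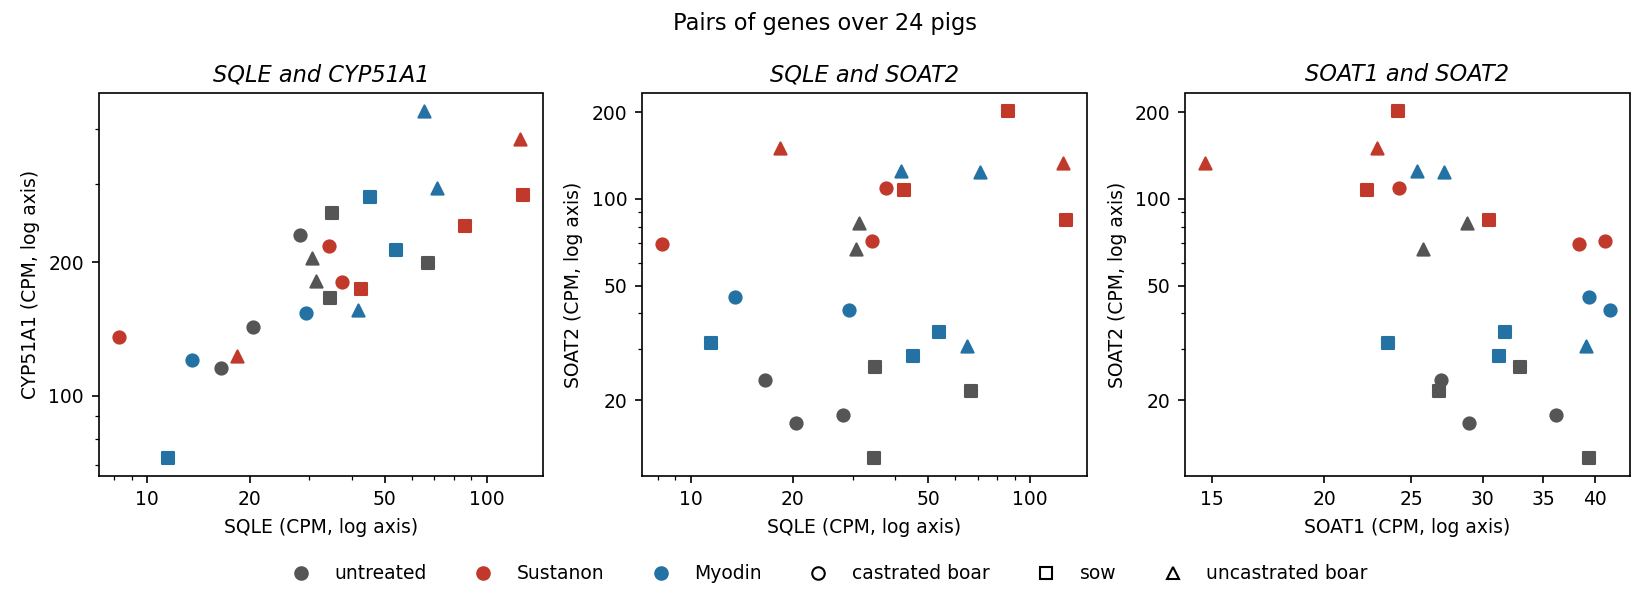
Pairs of members in the 24 pigs, in CPM on log axes, with colour for treatment and shape for class: SQLE against CYP51A1 (r = 0.82), SQLE against SOAT2 (r = 0.29) and SOAT1 against SOAT2 (r = -0.51). In the middle panel the untreated castrated boars and sows lie at 12.5 to 26.1 CPM of SOAT2 over an SQLE range of 16.5 to 66.9 CPM.

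Genes next to these in sterol metabolism were read from lists of their own. Of 36 other genes of the sterol pathway 23 were found and tested, and with Sustanon 7 were fitted higher and 16 lower than in untreated pigs, with a median log2 fold change of -0.07. In all pigs no call was made with Sustanon against untreated among 6 tested genes of 14 listed fatty acid targets of SREBF1 and SREBF2 (0 at an unadjusted p under 0.05), or among 3 tested of 8 listed genes of bile acid synthesis (0 at an unadjusted p under 0.05). In pigs without testes 1 of the 6 fatty acid targets was called by edgeR with Sustanon, higher, beside 5.6% of all tested genes, and none of the 3 bile acid genes. In uncastrated against castrated boars 1 of the 6 was called, higher, beside 0.676% of all tested genes. For the difference of the Sustanon effects 3 of the 6 had an unadjusted p under 0.05 (0 called, median log2 difference -1.44), beside 7.43% of all tested genes.

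Markers of other cells were set beside the SOAT2 and NPC2 results. No tested marker was called with Sustanon against untreated pigs in any list. The skeletal muscle markers did not pass the filter on low counts and were not tested. The 4 stellate and stromal markers found, of 6 listed, were all fitted higher with Sustanon, with a median log2 fold change of 0.46, and summed to 129.9 to 377 CPM in Sustanon, 92.3 to 295 in untreated and 90.3 to 264 in Myodin pigs. None of the 4 had an unadjusted p under 0.05 in that comparison, but 3 had against Myodin pigs (median log2 fold change 0.84, 0 called) and 2 in pigs without testes against untreated ones (median 0.58, 0 called). The 3 bile duct markers found, of 5 listed, summed to 36.3 to 82.1 CPM in Sustanon and 36.8 to 53.3 in untreated pigs. The 3 endothelial markers of 5 listed summed to 59.8 to 103 and 64.7 to 145 CPM, and the 2 adipocyte markers of 4 listed to 6.41 to 26.0 and 18.1 to 33.4 CPM. The 3 red blood cell markers of 4 listed summed to 9.33 to 40.8 and 13.2 to 52.4 CPM, and the 3 skeletal muscle markers of 4 listed stayed at or below 3.96 CPM in all pigs. In Sustanon against Myodin pigs, where NPC2 was called, all 5 Kupffer cell and leukocyte markers were fitted lower with Sustanon (median log2 fold change -0.20, 0 called). None of the 5 had an unadjusted p under 0.05 there. All 3 bile duct markers were fitted higher (median 0.33, 2 at an unadjusted p under 0.05, 0 called). Of the 3 endothelial markers 1 was fitted higher and 2 lower (median -0.18, 2 at an unadjusted p under 0.05, 0 called). In uncastrated against castrated boars, where SOAT2 was called, all 4 hepatocyte markers were fitted lower (median -0.42) and all 5 Kupffer cell and leukocyte markers higher (median 0.19), with 1 of each list at an unadjusted p under 0.05 and 0 called. Of all tested genes, 19.6% had an unadjusted p under 0.05 with Sustanon against untreated pigs and 18.1% against Myodin pigs. The share was 20.1% with Sustanon in pigs without testes and 15.8% in uncastrated against castrated boars. The sums of the markers overlapped between the treatments in every list, and their part in the results on members was not tested.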

How the data were processed

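Poly-A selected, strand-marked liver libraries of 24 pigs, 1 per pig, were sequenced by the authors in paired ends, trimmed, and aligned with STAR 2.5 to Sus scrofa (Sscrofa11.1 per the submitters' processing notes). The counting tool and annotation are not given in the sources used here. The deposited count table holds raw counts per gene, and the deposited log2 table holds log2(TPM + 1) values made by the authors from the same libraries. TPM levels were obtained by reversing that scale. Both tables pair Ensembl identifiers with symbols, and 3779 entries have no symbol. Positions of all 23 members were taken from RefSeq for the same build. The counts of MYLIP, the least abundant member, were 51 to 173 per library, and each member value rests on at least that depth.

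Groups came from the sample labels. In 1 Sustanon library, sow 6, the column header carried the covariate code of the castrated boars, and the label was followed. Counts were scaled by the trimmed mean of M values, filtered with filterByExpr and fitted in edgeR 4.0.16 (R 4.3.3) by quasi-likelihood, once with the 3 treatments as terms and once with the 9 groups of treatment and class. Pigs without testes are the mean of the effects in castrated boars and sows. P-values were adjusted by Benjamini-Hochberg over all tested genes, and an adjusted p under 0.05 was the call. The standard errors and intervals belong to the log2 fold changes. CPM values use TMM factors, with a prior count of 2 on the log2 scale. DESeq2 1.42.0, limma 3.58.1 on the deposited log2 values, RLE scaling, no filter, class as a covariate, a minimum absolute log2 fold change of 1, and leaving out libraries were the alternatives. Correlations used 100000 permutations in NumPy 2.4.6. The fitting steps were tested on simulated data.

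The members and lists were chosen with earlier results of these data known. Members were given with values per pig where called, or, in a comparison without calls, where among the 3 smallest p-values, and where part of a correlated pair. Outside this rule, EBP, MVD, LPIN1 and ABCG8 were also given per pig in comparisons where they were not called, chosen after their values were seen. A result among the other genes of the sterol pathway is not reported here. The lists were other genes of the sterol pathway, fatty acid targets, bile acid synthesis, and markers of hepatocytes, bile duct cells, Kupffer cells and leukocytes, stellate and stromal cells, endothelial cells, red blood cells, skeletal muscle and adipocytes. Of 10 planned pairs 2 could be computed, because HMGCS1, INSIG1 and INSIG2 were not matched, and 7 others were added with SQLE.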

Additional observations from a re-analysis of the deposited data

Results flagged for a closer look

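NR1H3 in Myodin uncastrated boar 24 stood apart from the other Myodin pigs, at 310 CPM, with the next pig at 222 CPM. The gap was 0.622 of the range of the 8 pigs, above Dixon's critical value of 0.526. Of 69 groups of 8 pigs examined (the 23 members in each treatment) this was the only 1, and chance alone gives about 1 in 20. The same pig also had the highest TM7SF2 and PMVK values of all 24 pigs, 586 and 152 CPM. What sets this pig apart was not tested.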

How the results depend on the processing

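No log2 fold change of a called member turned direction in its comparison under any alternative. With Sustanon against untreated pigs MSMO1, SREBF2, NPC1 and ABCG8, whose fitted changes were near 0, kept their sign in 24, 30, 30 and 29 of 31 other fits, and the other 19 members in all 31. Myodin against untreated pigs gave 0 calls under all of them, in all pigs and in pigs without testes. For Sustanon against untreated pigs the members called were 3, 0 without the libraries against their label, 1 with a minimum absolute log2 fold change of 1, and 2 to 3 when single pigs were left out. SOAT2 and NPC2 were called in each of these 24 fits. The calls over all genes were 420 of 8279, 0 of 8434 without the libraries against their label and 129 with the fold minimum. For Sustanon against Myodin the members called were 1, 2 with DESeq2 (STARD4 added), 3 with class as a covariate (STARD4 and SOAT2 added), 0 with the fold minimum, and 0 to 2 when single pigs were left out. Over all genes the calls went from 55 of 8279 to 276 of 9938 with DESeq2 and 390 of 8279 with class as a covariate. No member was called without Sustanon castrated boar 2, Sustanon sow 5 or 6, Sustanon uncastrated boar 20, or Myodin sow 10 or 11, and 2 were without Sustanon castrated boar 1 or Myodin uncastrated boar 23. In pigs without testes the 4 members called with Sustanon became 2 without untreated castrated boar 15, 1 without the libraries against their label, 2 with the fold minimum, and 2 to 5 when single pigs were left out. The members called were 2 without Sustanon sow 5 or 6, untreated castrated boar 14 or 15, or untreated sow 17. Calls over all genes fell as well, from 464 of 8279 to 335 of 8321 without untreated castrated boar 15. They were 73 of 8434 without the libraries against their label and 169 with the fold minimum. For uncastrated against castrated boars the 1 call became 0 without untreated castrated boar 15, 0 without the libraries against their label, 4 with DESeq2, and 0 to 1 when single pigs were left out. It was 0 without Myodin castrated boar 8 or 9, Myodin uncastrated boar 23 or 24, untreated castrated boar 13, 14 or 15, or untreated uncastrated boar 25 or 27. Over all genes 56 of 8279 were called, and 31 of 8321 without untreated castrated boar 15. There were 29 of 8434 without the libraries against their label and 253 of 8806 with DESeq2. For the difference of the Sustanon effects DESeq2 gave 1 call, LPIN1, against 0. Where libraries were left out, fewer pigs were tested and the balance of the classes changed. Without the libraries against their label, untreated uncastrated boars 25 and 27 stayed beside castrated boars 13 and 14 and sow 17. The part of each in the lost calls was not tested. For the other settings the cause was not tested. Of the 9 pairs 6 passed, and 2 when only the 2 planned pairs were kept. The r of SQLE and LPIN1 turned from -0.0162 to 0.0144 without the libraries against their label. On the deposited log2 values r was 0.27 for ABCG5 and ABCG8 and -0.37 for SOAT1 and SOAT2, and neither passed. Groups of 2 or 3 pigs limit what the comparisons by class can show. Without the libraries against their label the untreated sows were down to 1, sow 17. No paired analysis was possible because the pig numbers are not shared between groups.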
